A study of Mus musculus with 44 samples.

Results

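H3K27me3 peaks of early reprogramming cells were set against those of normal hepatocytes of the mouse liver, with 2 libraries in each group, 4 of the 44 libraries of the study. The study follows hepatocytes as they turn into biliary cells under injury. Early cells (early 1 and early 2) were EGFP-positive and CD24-negative cells sorted by flow cytometry from Rosa26-LSL-Cas9-EGFP mice that had been given AAV8-TBG-Cre and then a diet with 0.1% DDC, a hepatotoxin that causes cholestatic injury, for 8 to 9 weeks. Normal hepatocytes (Hep 1 and Hep 2) were isolated on a Percoll gradient from mice given the same virus and kept on a normal diet. The TBG promoter drives Cre in hepatocytes, so EGFP marks cells that were hepatocytes when the virus was given. The labels name every sample wild type, although the strain carries the Cas9-EGFP allele, and give no age. Diet, DDC and the way the cells were isolated differ together between the groups and cannot be told apart from the stage. The labels do not say whether the replicates came from separate mice, so the p-values below measure a spread between libraries, which may be technical.

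H3K27me3, trimethylation of lysine 27 of histone H3, is laid down by the Polycomb repressive complex PRC2 and is known for marking silent genes, above all CpG-rich promoters of developmental regulators. Where H3K4me3, the mark of active or poised promoters, lies on the same promoter, the state is called bivalent. In the liver, hepatocyte genes lack H3K27me3 in hepatocytes, and genes of other lineages, bile duct genes among them, can carry it.

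Each library is a list of peaks as the authors deposited it, with positions in mm10 and a score for each peak. The early lists held 6195 and 7610 peaks covering 1.78 and 2.03 Mb, and the Hep lists held 4492 and 16547 peaks covering 1.27 and 3.27 Mb. Hep 2 stood apart with more and shorter peaks (median 170 bp) than the other 3 libraries (medians 247 and 233 bp in early cells, 249 bp in Hep 1). The counts of regions, genes and list members were therefore also made with equal peak numbers, the 4492 highest-scored peaks of each list. Switches of marks and miRNA counts were made with all peaks. Read depth is unknown. At 6 hepatocyte genes (Alb, Apoa1, Ttr, Hnf4a, Serpina1a and Fga) H3K4me3 peaks lay at 5 and 6 genes in early cells and at all 6 in both Hep libraries, and H3K27ac peaks at 3 and 5 genes in early cells and at 6 in Hep. None of the 6 had H3K27me3 in any of the 4 libraries. Of 6 biliary genes (Krt19, Krt7, Epcam, Spp1, Sox9 and Cftr), 2 and 3 had H3K4me3 in early cells against 1 and 2 in Hep. H3K4me3 at markers of other cell types was found at 1 and 2 of 14 stellate and fibroblast genes in early cells and 2 and 2 in Hep, at 3 and 3 of 12 endothelial genes in early cells and 2 and 1 in Hep, and at 3 and 2 of 11 macrophage genes in early cells and 2 and 3 in Hep. The part of other cells in the results was not tested.

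The 5 promoters below show the kinds of sequence that carried the mark, with CG dinucleotides, the target of DNA methylation and the feature that CpG islands are rich in, in capitals. Gfpt2 (chr11:49793905-49794204 on the + strand) and Pde1a (chr2:80128922-80129221 on the - strand) had H3K27me3 in both early libraries and neither Hep library. Pparg (chr6:115360894-115361193 on the + strand) and Prom1 (chr5:44101687-44101986 on the - strand) had it in both Hep libraries and neither early library. Tet1 (chr10:62887275-62887574 on the - strand) had it in all 4. Each sequence holds 250 bases before and 50 after a start of the gene, read 5′ to 3′ on the strand of the gene (RefSeq, GRCm38.p6). For Pde1a (gene at chr2:79834453-80196522) the start printed lies inside the gene and is not its outermost start.
Gfpt2: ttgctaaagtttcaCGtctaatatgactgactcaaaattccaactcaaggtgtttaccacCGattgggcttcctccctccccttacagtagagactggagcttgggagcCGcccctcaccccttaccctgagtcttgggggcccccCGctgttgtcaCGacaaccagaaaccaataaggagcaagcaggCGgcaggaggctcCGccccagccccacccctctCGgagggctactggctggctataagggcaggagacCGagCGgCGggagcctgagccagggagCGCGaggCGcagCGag
Pde1a: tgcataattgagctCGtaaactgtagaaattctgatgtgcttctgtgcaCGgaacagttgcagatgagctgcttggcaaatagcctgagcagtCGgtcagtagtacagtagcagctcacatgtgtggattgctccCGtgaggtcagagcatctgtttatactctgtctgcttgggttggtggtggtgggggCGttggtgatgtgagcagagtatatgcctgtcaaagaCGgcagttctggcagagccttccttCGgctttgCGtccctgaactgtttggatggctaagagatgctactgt
Pparg: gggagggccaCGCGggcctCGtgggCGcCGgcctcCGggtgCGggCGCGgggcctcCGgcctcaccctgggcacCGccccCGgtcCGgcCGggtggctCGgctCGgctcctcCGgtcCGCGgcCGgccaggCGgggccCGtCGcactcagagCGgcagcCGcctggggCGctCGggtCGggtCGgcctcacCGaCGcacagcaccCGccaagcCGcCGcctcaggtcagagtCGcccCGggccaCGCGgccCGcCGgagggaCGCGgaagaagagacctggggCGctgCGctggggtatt
Prom1: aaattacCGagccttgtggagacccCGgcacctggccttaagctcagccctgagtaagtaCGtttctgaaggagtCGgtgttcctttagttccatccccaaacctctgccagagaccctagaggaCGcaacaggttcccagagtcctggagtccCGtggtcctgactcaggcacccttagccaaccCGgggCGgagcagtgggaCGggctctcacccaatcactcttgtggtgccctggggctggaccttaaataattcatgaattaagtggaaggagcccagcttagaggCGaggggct
Tet1: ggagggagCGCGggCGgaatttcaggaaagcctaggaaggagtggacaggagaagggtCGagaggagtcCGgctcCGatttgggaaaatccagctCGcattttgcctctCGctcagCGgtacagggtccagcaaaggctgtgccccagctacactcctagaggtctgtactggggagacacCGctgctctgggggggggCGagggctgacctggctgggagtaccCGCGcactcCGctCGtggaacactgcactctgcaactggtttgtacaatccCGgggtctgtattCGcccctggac

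These hold 15, 8, 44, 10 and 17 CG dinucleotides in the order printed. Over the genes with a promoter sequence, the median was 11 CG per promoter for 131 genes marked only in early cells and 20 for 357 genes marked only in Hep. The median was 17 for 859 genes marked in all 4 libraries, against 13 for all 17491 protein-coding genes, of which 94.8% held at least 1 CG. The marked genes had a peak anywhere in the gene or its 2500 bp flanks. With a peak within 1000 bp of a start, medians were 15.5 (88 early-only genes), 22 (290 Hep-only genes) and 16 (357 all-4 genes). Gfpt2 makes the isoform of the enzyme that starts the hexosamine pathway, Pde1a a calmodulin-dependent phosphodiesterase, Pparg the nuclear receptor of fat cell differentiation, Prom1 the surface protein CD133 of bile duct and progenitor cells, and Tet1 an enzyme that oxidises methylated cytosine.

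Peaks of the 4 lists were joined where they overlapped, which gave 25067 merged regions. Of these, 622 (2.48%) had a peak in both early libraries and neither Hep library, and are called early-only regions. Another 894 (3.57%) had a peak in both Hep libraries and neither early library (Hep-only regions), and 835 (3.33%) had a peak in all 4. Most regions (18955, 75.6%) had a peak in 1 library, and 11361 of those were in Hep 2. With equal peak numbers the early-only and Hep-only counts were nearly the same, 520 (4.1%) and 518 (4.08%) of 12695 regions, and 405 (3.19%) had all 4. The greater number of Hep-only regions was thus not seen once the lists were of equal length. With 2 against 2 libraries an exact permutation test gives no p under 0.333, so these counts carry no p.

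**Figure D1:**
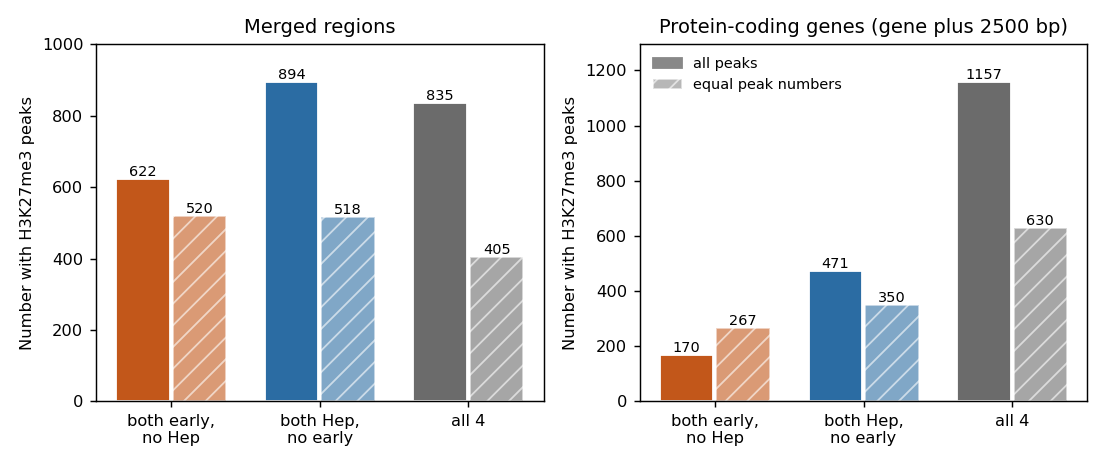
Number of merged regions (left) and of protein-coding genes with their 2500 bp flanks (right) that had H3K27me3 peaks in both early libraries and no Hep library, in both Hep libraries and no early library, or in all 4 libraries. Plain bars use all peaks and hatched bars equal peak numbers. The early-only and Hep-only counts of regions are 622 and 894 with all peaks and 520 and 518 with equal numbers.

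The early libraries shared more covered bases with each other (Jaccard index 16.5%) than with the Hep libraries (11.7 to 12.3%), whereas the Hep libraries shared 11.9%, no more than pairs of different groups. With equal peak numbers the values were 16.1% for the early pair, 14.3% for the Hep pair and 11.6 to 13.0% between groups. Early 2 recaptured 38.1% of the peaks of early 1, and early 1 recaptured 31.3% of those of early 2. Hep 2 recaptured 53.0% of the peaks of Hep 1, and Hep 1 recaptured 14.7% of those of Hep 2. Hep 2, the longest list, overlapped more of the early peaks than the other early library did, 42.7% of early 1 and 39.3% of early 2, whereas Hep 1 overlapped 22.2% and 21.2%. With equal peak numbers, 32.2% of early peaks in each direction were shared between the early libraries and 28.8% and 28.6% between the Hep libraries, and 21.9 to 27.6% of peaks were shared between an early and a Hep library. The mean within groups exceeded that between groups by 5.29 percentage points (5.97 with all peaks). The 1548 highest-scored peaks of early 1 were recaptured in early 2 more often (57.2%) than its other peaks (31.8%). The same held across groups, in Hep 1 (38.6%, against 16.8%) and in Hep 2 (63.4%, against 35.9%).

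Regions marked in all 4 libraries were longer (median 555 bp) than early-only (363 bp) and Hep-only regions (308 bp). Their best peaks ranked higher in every list, with median score percentiles of 78.4 and 80.4 in the early libraries and 72.6 and 82.6 in the Hep libraries. A merged region spans the peaks of each library in it, and its percentile is that of its best peak. The all-4 class joins more lists than the other classes, and the part of this in the difference was not tested. Early-only regions lay within 1000 bp of a gene start in 15.1% of cases, beside 15.0% of all merged regions. Hep-only regions did so in 30.6% and regions of all 4 libraries in 34.7%. Among equal numbers of peaks the shares were 22.7%, 40.5% and 38.3%, beside 18.98% of all merged regions. The median distance to a gene start was 18752 bp for early-only regions, against 16870 bp for Hep-only regions, 6144 bp for regions of all 4 libraries and 32000 bp for all merged regions.

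The other histone marks, which played no part in choosing the regions, differed between the classes. H3K4me3 peaks overlapped 1.29% and 1.77% of early-only regions in early cells, and 1.29% and 2.57% in Hep. At Hep-only regions H3K4me3 overlapped 30.2% and 33.1% of regions in early cells, and 30.3% and 35.5% in Hep. H3K4me3 was thus present at about the same share of Hep-only regions in both cell groups, and the ranges of the groups overlap. At regions of all 4 libraries H3K4me3 overlapped 9.10% and 9.58% in early cells, and 3.23% and 9.70% in Hep.

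H3K27ac, the mark of active promoters and enhancers, overlapped at most 0.322% of early-only regions in any of the 4 libraries. At Hep-only regions it overlapped 20.2% and 24.7% in early cells, and 29.9% and 31.9% in Hep, with no overlap between the groups. H3K4me1, the mark of enhancers, overlapped 5.15% and 19.8% of Hep-only regions in early cells, and 37.8% and 45.1% in Hep. The early lists of these 2 marks were shorter, with 23511 and 35824 H3K27ac peaks in early cells against 40918 and 44187 in Hep, and 12785 and 48939 H3K4me1 peaks against 54719 and 77991. The part of list length in these differences was not tested.

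**Figure D2:**
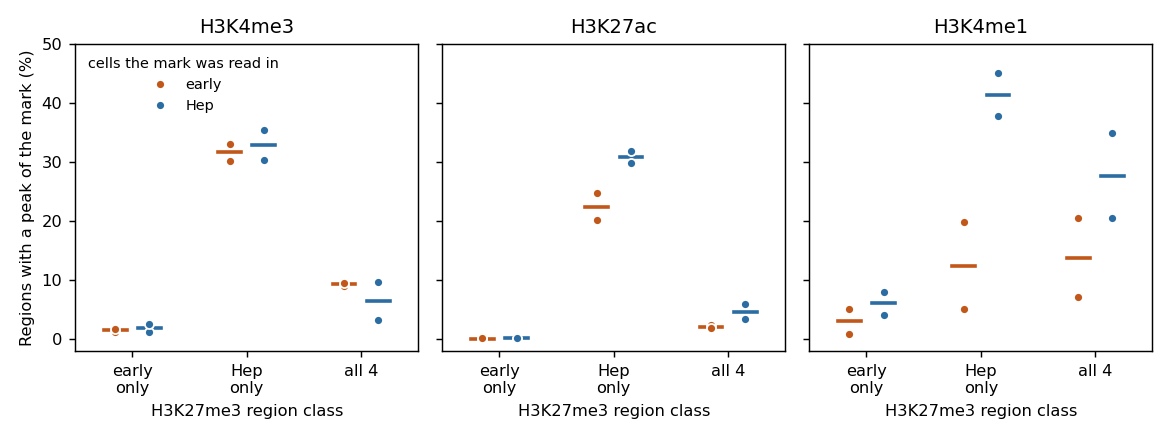
Percent of early-only, Hep-only and all-4 H3K27me3 regions that overlap a peak of H3K4me3, H3K27ac or H3K4me1. Points are the 2 early and the 2 Hep libraries of each mark, and bars are their means. Hep-only regions carry H3K4me3 at 30.2 to 35.5% in all 4 libraries, and early-only regions at no more than 2.57%.

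The Hep libraries as a whole had a larger share of their H3K27me3 peaks on H3K4me3 or H3K27ac peaks. In early 1 and early 2, 3.00 to 3.55% of all H3K27me3 peaks overlapped an H3K4me3 peak of an early library and 0.533 to 1.24% an H3K27ac peak. In Hep 1, 11.3% and 14.7% overlapped H3K4me3 of the Hep libraries, and in Hep 2, 7.18% and 10.1%. H3K27ac overlapped 7.37 to 12.8% of the Hep peaks. In lists of equal length the H3K4me3 shares were 3.52 to 4.43% in early and 11.3 to 19.8% in Hep, so the groups did not overlap in either setting. H3K27me3 and H3K27ac sit on the same lysine of the histone. The part of open chromatin in the Hep peaks that overlap H3K4me3 or H3K27ac was not tested. In such bulk libraries a mark in fewer of the cells and less of the mark per cell cannot be told apart. Of the 894 Hep-only regions, 352 overlapped H3K4me3 or H3K27ac of a Hep library, and 58.2% of those lay near a gene start. The other 542 lay near a gene start in 12.7% of cases, close to the share of early-only regions.

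A switch of H3K4me3 was seen at few regions. Of the 894 Hep-only regions, 19 had H3K4me3 in both early libraries and neither Hep library, 18 had the reverse, and 211 had H3K4me3 in all 4. Of the 622 early-only regions, 0 had H3K4me3 in both early libraries and neither Hep library, and 2 had the reverse. Of the 835 regions that kept H3K27me3 in all 4 libraries, the counts were 17 and 3. A gain of H3K4me3 in early cells was thus not particular to Hep-only regions. For H3K27ac, 9 Hep-only regions had it in both early libraries and neither Hep library, and 46 had the reverse. For H3K4me1 the counts were 1 and 176.

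H3K27me3 of the 7 libraries of later stages (CD24-positive intermediate and late cells) and of biliary epithelial cells (BEC), all from DDC-treated mice, was not used in choosing the regions. In intermediate 1 and 2, 47.6% and 25.4% of early-only regions had a peak, against 35.5% and 13.2% of Hep-only regions. In late 1, 2 and 3 the shares were 21.4%, 35.2% and 35.0% of early-only regions, against 22.6%, 15.1% and 24.4% of Hep-only regions. In BEC 1 and 2 they were 18.0% and 7.88%, against 7.05% and 3.24%. Early-only regions were marked more often in 6 of the 7 libraries, late 1 being the exception. The mean difference was 9.93 ± 6.68 percentage points (SD, n = 7 libraries; exact two-sided sign-flip permutation p = 0.0312, where the smallest possible is 0.0156).

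This difference depended on how the classes were drawn. With the early class drawn from 1 library it turned negative, to -8.33 points without early 1 and -10.8 points without early 2. With the Hep class drawn from 1 library it was 18.3 points without Hep 1 and 27.4 points without Hep 2. In each of these settings 1 class was drawn from 1 library and the other from 2, and the cause of the reversals was not tested. Regions of all 4 libraries were marked most often, in 89.7% and 64.1% in intermediate, 55.4 to 70.4% in late cells and 37.7% and 17.6% in BEC.

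**Figure D3:**
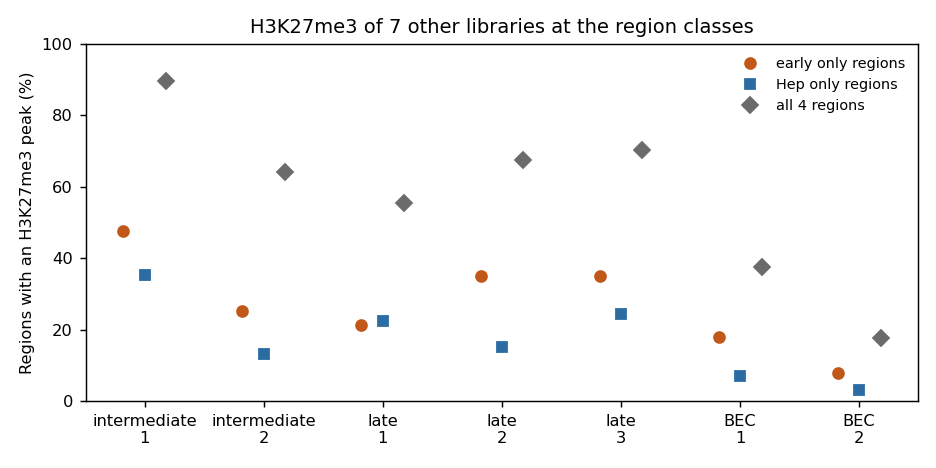
Percent of early-only (circles), Hep-only (squares) and all-4 (diamonds) H3K27me3 regions that have an H3K27me3 peak in each of the 7 libraries of intermediate and late cells and of BEC. Early-only regions lie above Hep-only regions in 6 of the 7 libraries, and all-4 regions lie above both.

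Genes were read as the gene body plus 2500 bp on each side. Of 21883 protein-coding genes, 2713 and 3100 had an H3K27me3 peak in the early libraries, and 2448 and 5113 in the Hep libraries. Peaks in both early libraries and neither Hep library were found at 170 genes (0.777%), the reverse at 471 (2.15%) and peaks in all 4 at 1157 (5.29%). With equal peak numbers these counts were 267 (1.22%), 350 (1.6%) and 630 (2.88%). With Hep 1 as the only Hep library the early-only genes numbered 801 and the Hep-only genes 682, and with Hep 2 as the only one 217 and 2061, so which class was larger depended on the Hep library. It also turned with a minimum of 500 bp covered, which left 103 early-only and 65 Hep-only genes.

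The covered length, the bp of a gene window under peaks, was compared by limma on log2(bp + 100) with all 11 H3K27me3 libraries in the fit. Of 5545 genes with a peak in at least 2 of the 11 libraries, 45 (0.812%) were higher and 221 (3.99%) lower in early cells at an adjusted p under 0.05 (Benjamini-Hochberg), and 705 genes had an unadjusted p under 0.05. Lists of equal length gave 109 higher and 230 lower. No gene passed without early 1, without early 2, with the replicate number as a block or when a peak in 4 or more libraries was required. For 189 of the 221 lower genes none of the 7 other libraries had a peak, so those genes entered the test only through Hep and their spread rests on the 2 Hep libraries. Likewise 18 of the 45 higher genes had no peak in the other 7 and entered only through early cells. Genes with a peak in 1 of the other 7 also needed the group where they were high to reach 2 libraries. Olfr94 and Ubd, lower, and Fbxo15 and Wnt11, higher, are examples. Such genes are not in these counts, and the same limit holds for their p-values. Over merged regions of the 11 libraries, 253 of 17311 (1.46%) were higher and 511 (2.95%) lower, and 279 and 378 with equal peak numbers. The lower regions overlapped H3K4me3 in 38.4% and 42.9% of cases in early cells and 38.9% and 45.0% in Hep, and the higher regions in 0.791% and 0.791% in early cells and 0.395% and 1.19% in Hep.

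Among the genes higher in early cells, Hsd3b1 (chr3:98842356-98859794, mm10), which encodes a steroid dehydrogenase of steroid hormone synthesis, had 685 and 837 bp covered in early cells and 0 in both Hep libraries (log2 difference 3.10 ± 0.49 SE, adjusted p = 0.0223, limma). Gfpt2 had 518 and 557 bp in early cells and 0 in Hep (2.67 ± 0.40, adjusted p = 0.0220, limma), and 258 and 557 bp of it lay within 1000 bp of the printed start. Pde1a had 416 and 648 bp in early cells and 0 in Hep (2.64 ± 0.42, adjusted p = 0.0223, limma). In these 3 genes both early libraries lie above both Hep libraries. Hsd3b1 also had peaks, of 127 to 260 bp, in every library of the other stages except intermediate 2. Pde1a had peaks in all 7 libraries of the other stages, of 235 to 519 bp, so within the whole set the Hep libraries were the ones without it.

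Evl, a regulator of actin filaments, had 446 and 508 bp in early cells and 0 in Hep (2.53 ± 0.32, adjusted p = 0.0182, limma). H3K27ac in the same window covered 507 and 489 bp in early cells, against 416 and 289 bp in Hep. St6galnac2, a sialyltransferase, had 862 and 413 bp, Lgi1, a secreted protein of neurons, 603 and 556 bp, and Pdlim4, a cytoskeletal LIM protein, 264 and 1047 bp in early cells, all with 0 in Hep. Aox4, an aldehyde oxidase, had 542 and 458 bp and Fbxo15, an F-box protein of pluripotent cells, 454 and 485 bp in early cells, with 0 in Hep. Zbtb7c, a zinc finger protein, had 1185 and 1049 bp in early cells, against 0 and 125 bp in Hep. All 10 genes passed, with adjusted p of 0.0182 to 0.0361 (limma).

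Among the genes lower in early cells, Bmper (chr9:23223076-23485215), a secreted protein that binds bone morphogenetic proteins, had 0 in both early libraries and 1041 and 1155 bp in Hep (log2 difference -3.58 ± 0.58 SE, adjusted p = 0.0226, limma). Abcc4 (chr14:118482692-118707856), a transporter that exports bile acids from hepatocytes into the blood and is induced in cholestasis, had 0 in early cells and 531 and 1987 bp in Hep (-3.52 ± 0.53, adjusted p = 0.0220, limma). Its H3K4me3 covered 193 and 1335 bp in early cells, against 0 and 513 bp in Hep. For Bmper and Abcc4 both Hep libraries lie above both early libraries, and Hep 2 had the longer coverage at Abcc4. Abcc4 had no H3K27me3 peak in the intermediate, late or BEC libraries. It thus entered the test only through Hep, and its spread rests on the Hep libraries.

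Pparg had 0 in early cells and 579 and 1171 bp in Hep (-3.22 ± 0.39, adjusted p = 0.0182, limma), with 451 and 952 bp of it within 1000 bp of the printed start. The same window carried H3K4me3 in both groups, 1027 and 1131 bp in early cells and 753 and 1046 bp in Hep, so in Hep both marks were called on this promoter. H3K27ac was present too, with 1460 and 1674 bp in early cells and 1667 and 2347 bp in Hep over the gene and its flanks. Fmnl3, a formin that elongates actin, had 1047 and 665 bp, and Pak3, a kinase best known from neurons, 547 and 1089 bp in Hep, both with 0 in early cells. Rap1gap, which switches off the GTPase Rap1, had 458 and 918 bp, Sstr4, a somatostatin receptor, 491 and 871 bp, and Lekr1 637 and 671 bp in Hep, again with 0 in early cells. Ubd, a ubiquitin-like modifier, and its neighbour Olfr94, an olfactory receptor gene, share the same peaks, 758 and 751 bp in Hep and 0 in early cells. These 10 genes passed with adjusted p of 0.0182 to 0.0247 (limma). Sstr4 had peaks in 5 of the 7 other libraries, and 6 of the 10 genes had none there. Those 6 (Abcc4, Fmnl3, Pparg, Pak3, Lekr1 and Rap1gap) entered the test only through Hep, and their spread rests on the Hep libraries. Of the 20 genes, Lgi1, Pde1a and Sstr4 did not pass with equal peak numbers (adjusted p = 0.542, 0.105 and 0.0871, limma).

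**Figure D4:**
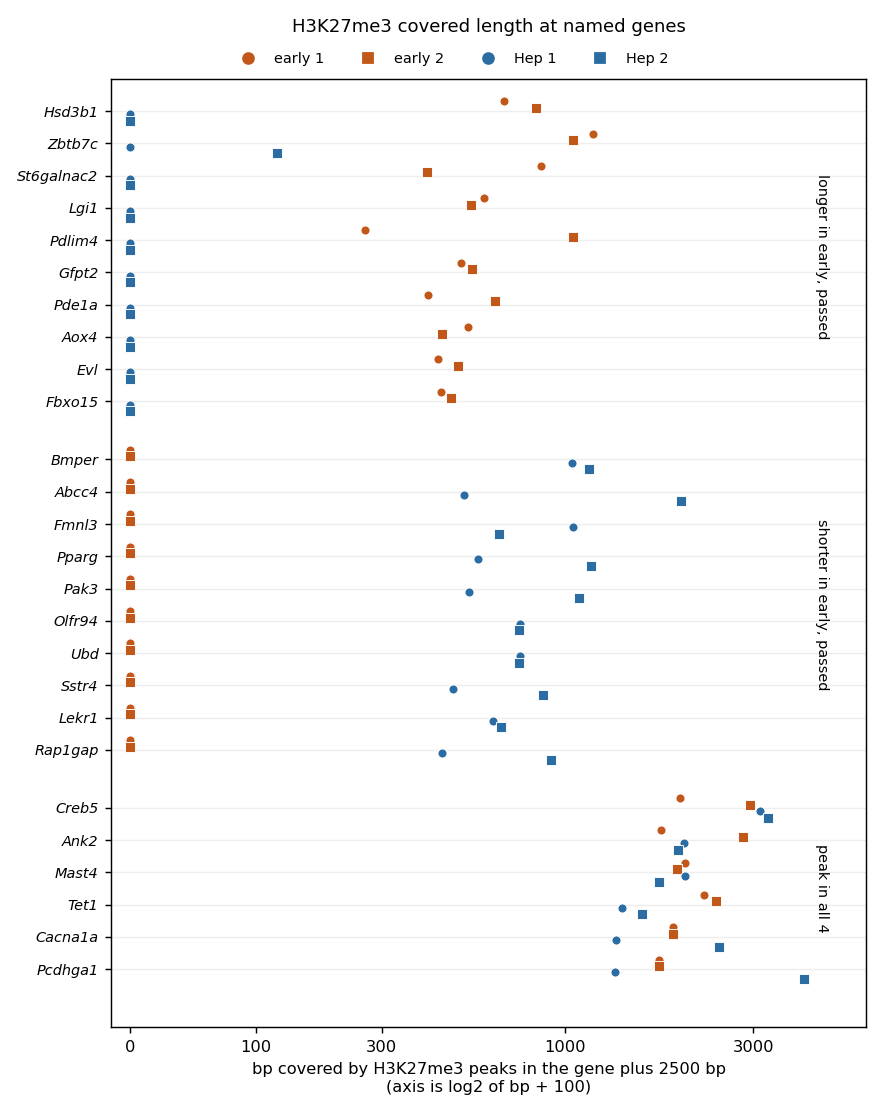
Length covered by H3K27me3 peaks (bp, log2 axis of bp + 100) in each early and Hep library, for the 10 genes with the largest positive and the 10 with the largest negative difference among those that passed limma, and for the 6 genes with the most coverage in all 4 libraries. In the first 2 groups the early and Hep libraries do not overlap, which the choice of these genes required, and in the third they overlap except at Creb5, where both Hep libraries lie above both early ones, and Tet1, where both early libraries lie above both Hep ones.

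Genes marked in all 4 libraries include long genes with many peaks. Creb5, a CREB family transcription factor, had 1973 and 2951 bp in early cells and 3119 and 3260 bp in Hep, with both Hep libraries above both early ones and without passing (adjusted p = 0.941, limma). Tet1 had 2263 and 2432 bp in early cells and 1402 and 1576 bp in Hep (log2 difference 0.62 ± 0.70 SE, adjusted p = 0.784, limma), 1103 and 1174 bp of it near the printed start in early cells and 849 and 887 bp in Hep. The 2 groups do not overlap for Tet1 but the difference did not pass. Ank2, an ankyrin (1767 and 2833 bp, against 2020 and 1947 bp), Mast4, a kinase (2025 and 1938 bp, against 2035 and 1741 bp), and Cacna1a, a neuronal calcium channel (1898 and 1890 bp, against 1356 and 2464 bp), overlapped between early and Hep. Of the 1157 genes, 917 (79.3%) had a peak in at least 4 of the 7 other libraries, against 59 (34.7%) of the 170 early-only genes and 72 (15.3%) of the 471 Hep-only genes.

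Biliary genes were marked in both groups. Of 34 biliary markers, 13 and 13 had H3K27me3 in early cells and 13 and 21 in Hep, so that 38.2% of the list was marked in both early libraries and in Hep 1, where 12.4%, 14.2% and 11.2% of all genes were. Lists of equal length gave counts of 9 and 5 in early cells and 13 and 10 in Hep, so both Hep libraries then lay above both early ones. In BEC the shares were 2.94% and 0% of the list, beside 8.99% and 4.69% of all genes. Marked in all 4 libraries were 7 members, and 1 member, Itga2, with equal peak numbers. Among the 7 were the tight junction genes Cldn6 and Cldn7, the secretin receptor Sctr, the enzyme gene Ggt1, the integrin Itga2 and the annexin Anxa3. Cldn7 had 269 and 538 bp in early cells and 324 and 378 bp in Hep. These genes were named because all 4 libraries held them, after their values were seen.

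The biliary marker that passed was Prom1, which had 0 in both early libraries and 492 and 814 bp in Hep (log2 difference -2.88 ± 0.35 SE, adjusted p = 0.0182, limma). Prom1 had no H3K27me3 peak in the intermediate, late or BEC libraries either. It thus entered the test only through Hep, and its spread rests on the Hep libraries. Its H3K4me3 covered 1379 and 1217 bp in early cells, against 136 and 253 bp in Hep, the reverse order. H3K27ac did not follow it, with 687 and 595 bp in early cells and 768 and 952 bp in Hep. Anxa2, a calcium-dependent membrane protein, had 0 against 371 and 125 bp in Hep, and Ddr1, a collagen receptor, 0 against 314 and 125 bp, and neither passed (adjusted p = 0.0560 and 0.0534, limma). Among the 4 libraries both had H3K4me3 in early cells alone, 555 and 1215 bp at Anxa2 and 833 and 1299 bp at Ddr1. Krt19 (chr11:100140810-100145926), the keratin that defines bile duct cells, did not pass, with 348 and 561 bp in early cells and 0 in Hep (2.44 ± 0.71, adjusted p = 0.113, limma), and with no H3K4me3 or H3K27ac peak in any of the 4 libraries. Of the 20 biliary markers tested, 0 were higher and 1, Prom1, lower, beside 0.812% higher and 3.99% lower over all genes tested.

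Of 14 biliary transcription factors, Glis3 (chr19:28258851-28680265), a zinc finger factor needed for bile duct and pancreas development, had 0 in early cells and 256 and 1389 bp in Hep (-2.86 ± 0.60, adjusted p = 0.0316, limma). Glis3 likewise had no H3K27me3 peak in the intermediate, late or BEC libraries. It too entered the test only through Hep, and its spread rests on the Hep libraries. H3K4me3 at Glis3 covered 2206 and 1949 bp in early cells, against 0 and 236 bp in Hep. H3K27ac at Glis3 covered 5480 and 4384 bp in early cells, against 212 and 211 bp in Hep. Klf5, an epithelial factor, was marked in all 4 libraries with 488 and 311 bp in early cells and 415 and 737 bp in Hep. Sox9 had no H3K27me3 in any of the 11 libraries and had H3K4me3 in all 4. Of all 21883 genes, 244 had H3K4me3 in both early libraries and neither Hep library, and 133 had the reverse. Among the 471 Hep-only genes the counts were 26 and 1, and among the 170 early-only genes 4 and 4. Among the 1157 genes with H3K27me3 in all 4 libraries they were 46 and 19.

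Hepatocyte genes were free of the mark. None of 35 hepatocyte function genes, 16 hepatocyte transcription factors and 20 housekeeping genes had a peak in any of the 4 libraries. Of 26 genes of bile acid and xenobiotic metabolism, Cyp2a5 had 242 bp in Hep 1, Cyp2b10 had 239 bp in Hep 2, and none had a peak in early cells.

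Developmental regulators, the classical Polycomb targets, were marked in both groups. Of 120 developmental transcription factors, 52 and 76 had a peak in early cells and 40 and 82 in Hep, and 16 had one in all 4. The shares were 43.3% and 63.3% in early cells and 33.3% and 68.3% in Hep, where 12.4% and 14.2%, and 11.2% and 23.4%, of all genes had a peak. In lists of equal length 37 and 54 members had a peak in early cells and 40 and 33 in Hep, and 5 had one in all 4, Pax3 among them and Sox17 not. Among the 16 were Pax3, a factor of neural crest and muscle, with 963 and 892 bp in early cells and 675 and 939 bp in Hep, and Sox17, an endoderm factor, with 647 and 899 bp in early cells and 310 and 978 bp in Hep. Of the 117 members tested, 1 was higher and 0 lower, beside 0.812% and 3.99% of all genes tested. That was Evx2, next to the Hoxd cluster, with 404 and 261 bp in early cells and 0 in Hep (2.09 ± 0.44, adjusted p = 0.0316, limma), which did not pass with equal peak numbers (adjusted p = 0.630, limma). Pdx1, the factor of pancreas development, had 409 and 401 bp in early cells and 0 in Hep, and Neurog3, the factor of endocrine precursors, 214 and 253 bp in early cells and 0 in Hep, and neither passed (adjusted p = 0.192 and 0.497, limma). Tbx4, a hindlimb factor, had 0 in early cells and 282 and 130 bp in Hep, and did not pass (adjusted p = 0.578, limma).

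In the 39 HOX genes, which set position along the body axis, 7 and 18 had a peak in early cells and 5 and 16 in Hep, and none passed. Hep 1 (12.8%) was near the 11.2% of all genes, and with equal peak numbers 4 and 6 HOX genes had a peak in early cells and 5 and 6 in Hep. Hoxa3 and Hoxd3 had peaks in all 4. The Hoxa cluster had 1077 and 1280 bp covered in early cells and 470 and 816 bp in Hep, with no overlap. The Hoxb cluster had 269 and 1788 bp in early cells and 415 and 1104 bp in Hep. The Hoxc cluster had 675 and 775 bp in early cells, against 0 and 685 bp in Hep, and the Hoxd cluster 532 and 1369 bp, against 422 and 1245 bp. When peak numbers were equal, both early libraries lay above both Hep libraries at Hoxa (873 and 634 bp in early cells, against 470 and 150 bp) and Hoxc (286 and 437 bp, against 0 and 172 bp) and not at Hoxb (0 and 190 bp, against 415 and 902 bp) or Hoxd (532 and 227 bp, against 422 and 190 bp). At Hoxc this held only with equal numbers, since early 1 (675 bp) lay below Hep 2 (685 bp) with all peaks.

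Of 19 Wnt ligands, 11 and 13 had a peak in early cells and 8 and 13 in Hep, shares of 57.9% and 68.4% in early cells and 42.1% and 68.4% in Hep, above those of all genes in each library. When peak numbers were equal, 10 and 10 had one in early cells and 8 and 5 in Hep. Wnt11, a ligand of the non-canonical pathway, had 357 and 201 bp in early cells and 0 in Hep (1.89 ± 0.41, adjusted p = 0.0385, limma), and Wnt5a, of the same branch, was marked in all 4 with 1008 and 971 bp in early cells and 526 and 760 bp in Hep. Among the 4 libraries, Fgf8, Fgf17 and Bmp5 (205 and 228 bp) had peaks in both early and no Hep library, and Fgf10 (262 and 482 bp) in both Hep and no early library. Fgf10 also had peaks in all 7 other libraries and Bmp5 in 3 of them. None of the 18 Fgf and 15 Bmp and Gdf ligands tested passed. Of the Notch pathway, Hes5, a target of Notch, had 248 and 386 bp in early cells and 0 in Hep without passing (adjusted p = 0.151, limma), and the related Hey2 had 520 and 511 bp in early cells and 675 and 1071 bp in Hep.

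Of the lists of TGF-beta signalling and epithelial-mesenchymal transition, cell cycle, YAP targets, NRF2 and stress, and macrophages, the members that passed had no peak in early cells or in any of the 7 other libraries. Like Prom1 and Glis3, they entered the test only through the Hep libraries, so that their number says nothing of the lists. Cdh1, E-cadherin, had 0 in early cells and 359 and 329 bp in Hep (-2.15 ± 0.32, adjusted p = 0.0220, limma), and Tgfb1, the cytokine, 0 in early cells and 238 and 300 bp in Hep (-1.88 ± 0.32, adjusted p = 0.0236, limma). The cyclins Ccne1 (0 in early cells, 286 and 334 bp in Hep) and Ccna2 (0 in early cells, 296 and 219 bp in Hep) were lower, with adjusted p of 0.0223 and 0.0247 (limma). Cdh1, Tgfb1, Ccne1 and Ccna2 carried H3K4me3 in all 4 libraries, Ccne1 with 854 and 873 bp in early cells and 959 and 1046 bp in Hep. The YAP target Myof (0 in early cells, 200 and 185 bp in Hep) and the macrophage receptor Cd14 (0 in early cells, 240 and 277 bp in Hep) also were lower, as was Abcc4, counted above, of the NRF2 and stress list. Cd14 too carried H3K4me3 in all 4 libraries, and Myof in early 2 alone. Over the 25 lists, 338 listed genes were tested, of which 2 were higher and 9 lower, against 0.812% and 3.99% of all genes tested. The median log2 difference was -0.29 over the 20 biliary markers tested, 0.27 over the 19 Wnt ligands and 0.06 over the 32 HOX genes, and 0 over all genes tested.

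**Figure D5:**
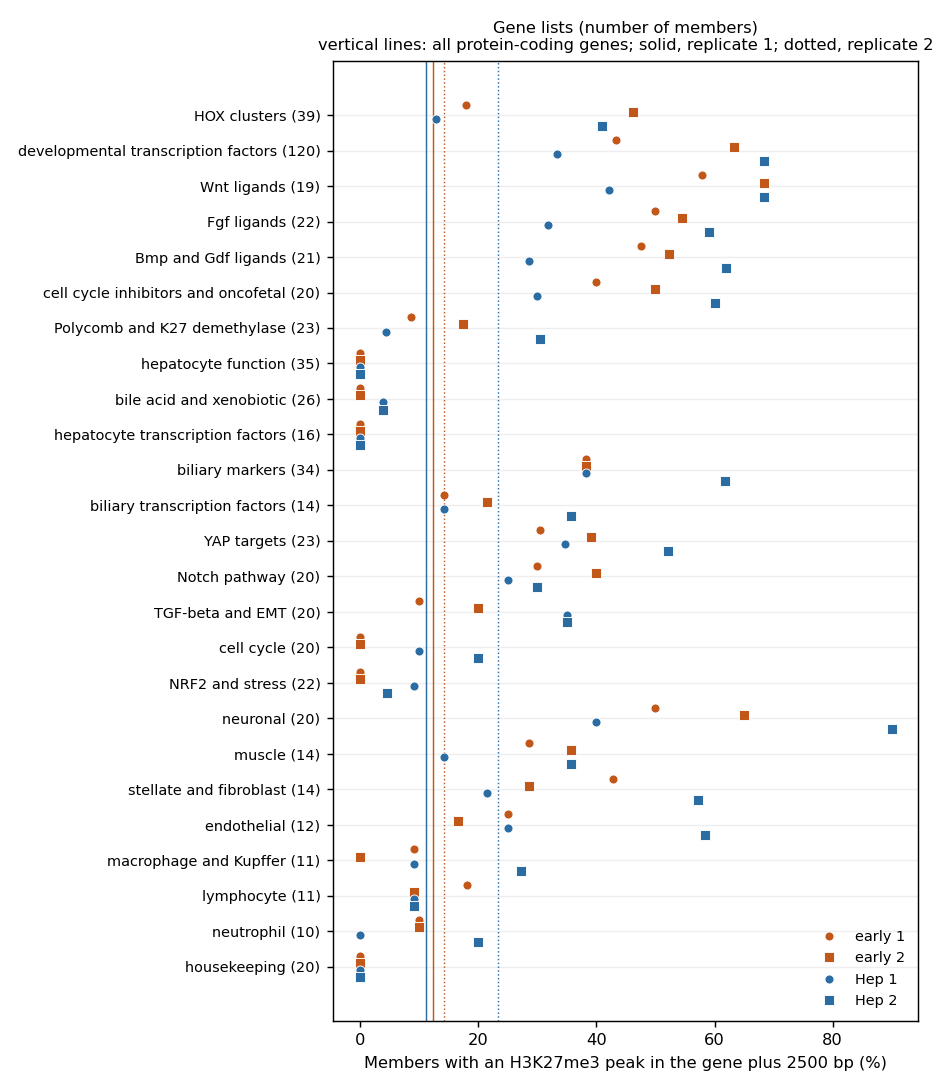
Percent of the members of each of 25 gene lists that had an H3K27me3 peak in the gene plus 2500 bp, in each early and Hep library, with the same percent over all protein-coding genes as vertical lines. Hepatocyte function, hepatocyte transcription factor and housekeeping lists lie at 0 in all 4 libraries, and the developmental and ligand lists lie above the line of the same library in both groups, with Hep 1 the lowest library in each of them.

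MicroRNA genes were read as hairpins with flanks, windows shorter than those of most protein-coding genes. Their shares are therefore not set against those of genes. Of 1005 miRNA hairpins read with 2500 bp on each side, 26 and 32 had a peak in early cells and 21 and 56 in Hep. Both early libraries and no Hep library held 6, both Hep libraries and no early library 7, and all 4 libraries 4. In lists of equal length none of the 4 stayed in the all-4 class. The sequences below (RefSeq, 5′ to 3′, bases 2 to 8 in capitals as the seed) are those of an early-only hairpin and of 3 hairpins of a seed family. Of these, miR-34b and the miR-449 pair share the seed GGCAGUG of the miR-34 family, which is known to act downstream of p53 and in multiciliated cells.
mmu-miR-125b-5p: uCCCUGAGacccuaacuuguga
mmu-miR-34b-5p: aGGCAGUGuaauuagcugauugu
mmu-miR-449a-5p: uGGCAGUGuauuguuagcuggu
mmu-miR-449c-5p: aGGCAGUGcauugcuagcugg

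Mir125b-1 (chr9:41581926-41582002), whose product targets growth and p53 pathway genes, had 289 and 204 bp in early cells and 0 in Hep. Mir34b (chr9:51103562-51103645), with Mir34c beside it under the same peaks, had 397 and 606 bp in early cells and 353 and 803 bp in Hep. Mir449a (chr13:113037534-113037624) had 0 in early cells and 210 and 250 bp in Hep, and Mir449c (chr13:113035983-113036091) 0 in early cells and 210 and 177 bp in Hep. Mir449a also had peaks in 6 of the 7 libraries of the other stages, so early cells and late 2 were the libraries without it. The miRNA genes were counted by presence and not tested.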

How the data were processed

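Light formalin fixation and a protein A/G-Tn5 fusion were used to cut at antibody-bound chromatin, per the labels' protocols. Per the submitters' processing notes, the build was mm10 and the tools included MACS2, Bowtie2, deepTools and Picard. Their versions and settings were not given in the sources used here. For each library the authors deposited 1 peak list, in which every peak has a score, whose definition is not stated. Scores served for ranking inside 1 list alone. Peaks on contigs other than the chromosomes (90 of 34934) were left out. Of the lists, 23 were used and 21 were not.

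Peaks overlapping by 1 bp or more were merged over the 4 libraries, and genes (RefSeq, GRCm38.p6, 21883 protein-coding) were read with 2500 bp flanks. Covered bp were tested with limma 3.58.1 (R 4.3.3) on log2(bp + 100), over 11 libraries of 5 stages, for features with a peak in at least 2 libraries, with Benjamini-Hochberg adjustment at 0.05. Other steps used Python 3.11.15, pandas 2.3.3, NumPy 2.4.6 and SciPy 1.17.1. The fit was tested on simulated data. Read depth is unknown, so no counting interval is given.

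The members, lists and tests were chosen with earlier results of these data known. Genes named, without Gm and Rik symbols, were up to 10 per direction that passed limma, showed no overlap of the libraries and had the largest difference, up to 6 members per direction of each list by the same order, and the 6 with the largest lowest coverage in all 4 libraries. Genes named outside this rule (all-4 members of lists, cell type markers, and the genes of the miRNA and HOX counts) were chosen after their values were seen. Some items are not reported here.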

Additional observations from a re-analysis of the deposited data

How the results depend on the processing

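Calls per gene (266 by limma) fell to 0 with the replicate number as a block, to 0 when a peak in 4 or more libraries was required, and to 26 with quantile normalization (4 higher, 22 lower), and were 110 with a pseudocount of 1000 bp (22 higher, 88 lower). At an unadjusted p under 0.05 the block gave 657 genes and the stricter filter 255. Calls per region (764) were 0 with the block (1532 unadjusted), 0 with the stricter filter (577 unadjusted) and 434 with quantile normalization. The block was not used, since the deviations of early 1 and Hep 1 from their group means hardly correlated (-0.024). That value covers none of the other stages, and whether libraries of the same number share a batch was not tested. With equal peak numbers 518 Hep-only regions and 405 of all 4, 267 early-only genes and 630 of all 4, and 20 early-only and 24 all-4 listed genes were counted. With the higher-scored 50% of each list the regions numbered 318 early-only, 458 Hep-only and 360 of all 4, and 494 genes had all 4. When peaks had to cover 50% of a region, 336 had all 4. Genes with at least 500 bp numbered 103, 65 and 178 (early-only, Hep-only, all 4). Without regions on active marks of Hep, an alternative added after seeing the data, 542 Hep-only regions were left. The excess of other marks at Hep-only over early-only regions in Hep was 40.9 points for H3K4me3, 40.5 for H3K27ac and 47.3 for H3K4me1 with equal peak numbers, against 31.0, 30.6 and 35.3. The difference over other stages was 10.8 points in the 5 intermediate and late libraries (exact p = 0.125, where the smallest possible is 0.0625), and reversed to -8.33 without early 1 and -10.8 without early 2; the cause was not tested.

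Leaving out 1 library at a time, and taking the lone sample of a group to vary like the other groups, gave 0 to 363 calls per gene and 650 to 842 per region. Early-only regions ranged over 786 to 4185, Hep-only regions over 1152 to 12322 and regions of all 4 over 979 to 1550. The same counts of genes ranged over 217 to 801, 657 to 2061 and 1204 to 1788, and the difference over other stages over -10.8 to 27.4 points. Of 30 named genes that passed, 30 no longer did with the block, without early 1 or without early 2, 18 with quantile normalization, 15 with the 4 libraries alone and 9 without either Hep library, all in the same direction. Under equal peak numbers 4 of the 27 with a value no longer passed.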
